A study of Homo sapiens with 9 samples.

Results

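The mitotic G2/M genes are 44 genes whose products carry cells from the end of DNA replication through mitosis and cytokinesis. They were read from probes whose annotated gene symbol is one of the 44, with 1 probe per gene, the brightest that passed a detection filter. All 44 were on the array and passed the filter, among 12245 genes tested, and every one was detected on all 9 arrays. The arrays held RNA from SaOS2, a human osteosarcoma cell line of osteoblast-like character, grown in G418 and hygromycin, in which doxycycline switches on antisense RNA against APC, a scaffold of the complex that degrades beta-catenin. Cells of the 3 recovery samples had 3 days of doxycycline at 1 µg/ml followed by 3 days of medium without it, those of the 3 doxycycline samples had the 3 days of drug alone, and those of the 3 control samples were untreated. The labels do not say outright that the control cells carry the construct, and cells given the drug without the antisense RNA were not analysed here, so the effects of the drug and of the antisense RNA cannot be told apart. The labels name no control kept for the later time of recovery, so withdrawal and added time in culture cannot be told apart either. Whether replicates were separate cultures, and whether the line was 1 clone, is not stated, so the p-values reflect array-to-array spread that may be technical in origin.

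Mitotic genes are transcribed in a wave late in the cell cycle. Their promoters are known for a short element, the cell cycle genes homology region or CHR, bound by the MuvB complex, and for CCAAT boxes bound by the factor NF-Y. MuvB with B-MYB and FOXM1 activates these genes in dividing cells, and MuvB within the DREAM complex represses them in resting cells.

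In recovery, genes of every mitotic function examined were lower than in control. Of the 44 genes, 33 fell at an adjusted p under 0.05 and 0 rose (limma across all genes, Benjamini-Hochberg adjustment), where 9.06% of all genes tested fell and 10.2% rose. The median log2 difference of recovery from control over the 44 genes was -0.53, against -0.01 over all genes. Levels did not overlap between the groups, with the recovery arrays lower, for 39 of the 44, against 23.5% of all genes. After the 3 days of doxycycline itself, 0 of the 44 passed the test against control in either direction, where 0.359% of all genes fell and 1.71% rose. In a bulk culture, fewer cells in G2 or mitosis and less mitotic RNA per cell cannot be told apart.

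The 9 arrays detected between 20141 and 21317 of 47322 probes each. Doxycycline replicate 2 stood apart from the other doxycycline arrays, and the main counts that involve it are given with and without it. The only APC probe lay near background, with log2 levels of 5.48, 5.28 and 5.48 on recovery arrays, 5.43, 5.44 and 5.40 on doxycycline arrays and 5.14, 5.04 and 5.68 on control arrays. These ranges overlapped, and the antisense effect on APC itself could not be read from them. Of 11 osteoblast and osteosarcoma markers 8 passed the filter, among them RUNX2 and ALPL, and 1, SPARC, was called higher in recovery than in control. The summed normalized intensity of the 8 ranged from 50038 to 55816 on recovery arrays, 47963 to 64609 on doxycycline arrays and 44018 to 47172 on control arrays, and its part in the mitotic result was not tested. Of 8 haematopoietic markers 3 passed (CD68, CD14 and CD79A), and PTPRC, CD3E, LYZ and HBB were among those that did not. Their summed normalized intensity, which CD68 dominated, ranged from 3411 to 4023 on recovery arrays, 1210 to 1516 on doxycycline arrays and 740 to 846 on control arrays, and its part in the mitotic result was not tested. Of 6 epithelial markers 2 passed, and of 4 endothelial markers 1 passed.

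The 3 genes in common use as markers of dividing cells were read first: TOP2A, the topoisomerase that untangles sister chromatids, CCNB1, the cyclin B1 that activates CDK1 at mitotic entry, and MKI67, the Ki-67 protein that coats mitotic chromosomes. TOP2A had log2 levels of 12.04, 11.97 and 12.01 on recovery arrays, 12.68, 12.62 and 12.75 on doxycycline arrays and 12.72, 12.65 and 12.69 on control arrays. All recovery arrays lay below all others, and the doxycycline and control arrays overlapped. TOP2A fell by 0.68 on the log2 scale in recovery against control (SE 0.10, limma adjusted p = 0.00085), which is 1.6-fold lower. Against control the doxycycline difference was -0.01 ± 0.10 (SE), with a 95% interval from -0.23 to 0.22.

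CCNB1 had log2 levels of 9.99, 9.85 and 10.09 on recovery arrays, 10.27, 10.34 and 10.65 on doxycycline arrays and 10.75, 10.62 and 10.67 on control arrays. The recovery arrays lay below the rest, and 1 of the 3 doxycycline arrays fell within the control range. CCNB1 was 1.63-fold lower in recovery than in control (log2 difference -0.70 ± 0.13, limma adjusted p = 0.003). It was also lower in recovery than in doxycycline, by -0.44 ± 0.13 (limma adjusted p = 0.037), a call that was lost in 9 of 21 alternative fits. The doxycycline difference from control was -0.26 ± 0.13 (limma adjusted p = 0.25), and -0.22 ± 0.13 without doxycycline replicate 2.

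MKI67 was the dimmest of the 44 probes. Its log2 levels were 6.65, 6.56 and 6.61 on recovery arrays, 7.45, 8.40 and 7.94 on doxycycline arrays and 7.46, 7.31 and 7.43 on control arrays. Every recovery array was below the control range, while 1 doxycycline array lay within the control range and the others above it. MKI67 was 1.74-fold lower in recovery than in control (log2 difference -0.80 ± 0.19, limma adjusted p = 0.014) and lower by -1.32 ± 0.19 than in doxycycline (limma adjusted p = 0.00085). The doxycycline difference from control, 0.53 ± 0.19, did not pass the test (limma adjusted p = 0.14) and was 0.29 ± 0.14 without doxycycline replicate 2.

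**Figure D1:**
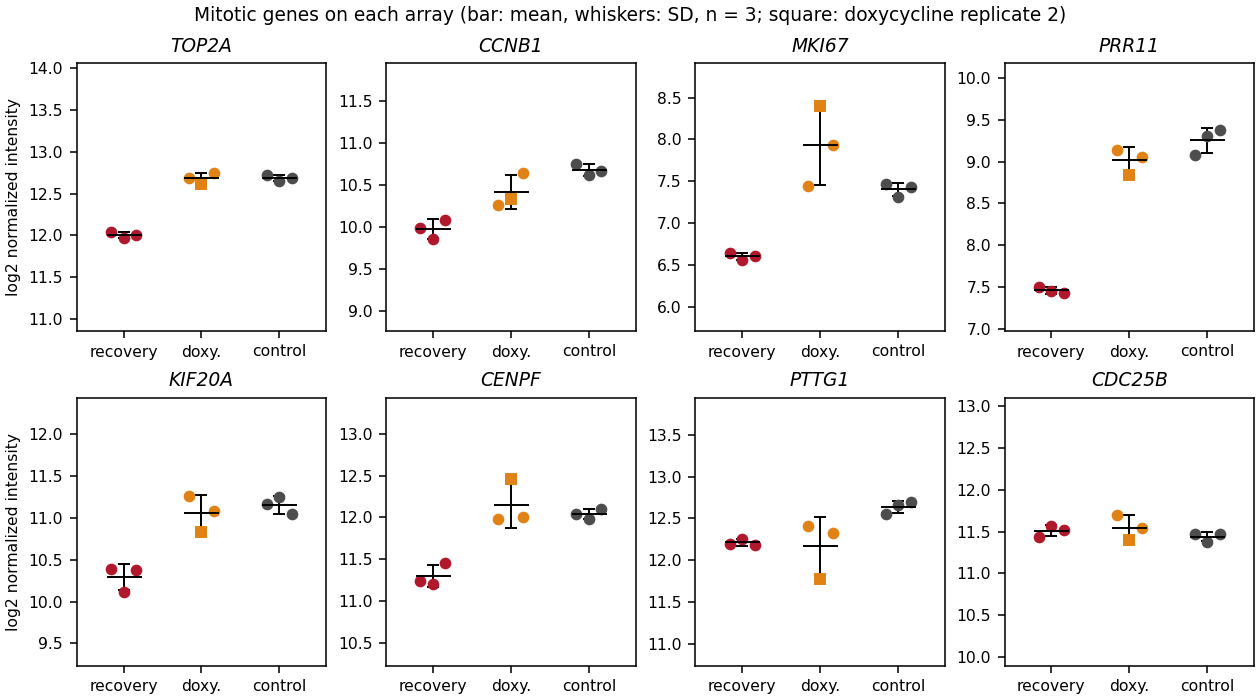
Log2 normalized intensity of 8 mitotic genes on each recovery, doxycycline and control array (points, with a square for doxycycline replicate 2; bars are means and whiskers SD, n = 3 each). Every panel spans the same range, so that the drop of PRR11 on recovery arrays can be set against that of TOP2A, and CDC25B, whose groups overlap, against both.

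Promoter sequence was available for 37 of the 44 genes, as the 250 bases before 1 listed RefSeq start in GRCh38.p14. For AURKB and CKAP2 that window lay inside the RefSeq gene span and not before it. The CHR was searched as TTTGAA or TTTAAA and the CCAAT box as CCAAT, on both strands, with overlapping matches counted separately. The CHR letters were found in 26 of the 37 (70.3%), against 15.2% of the 9872 promoters of genes tested and 22.1% of all 27305 promoters in the table. CCAAT letters were found in 26 (70.3%), against 35.5% of promoters of genes tested and 33.0% of all. Both stood together in 21 of the 37 (56.8%), 5.93% of promoters of genes tested and 7.85% of all. A match is a description of the letters and not a measured binding site. The 6 sequences that follow belong to the 3 markers, to PRR11 and KIF20A, the members with the largest differences of recovery from control, and to CDC25B, which did not fall. They are written 5′ to 3′ along the strand of the gene and end at the base before its start, with CHR and CCAAT letters of either strand in capitals.
CCNB1: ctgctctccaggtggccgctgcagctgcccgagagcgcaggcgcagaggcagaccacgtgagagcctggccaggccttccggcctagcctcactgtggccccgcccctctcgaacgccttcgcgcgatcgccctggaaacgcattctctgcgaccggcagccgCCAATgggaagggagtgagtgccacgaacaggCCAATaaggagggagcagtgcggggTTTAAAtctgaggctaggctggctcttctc
TOP2A: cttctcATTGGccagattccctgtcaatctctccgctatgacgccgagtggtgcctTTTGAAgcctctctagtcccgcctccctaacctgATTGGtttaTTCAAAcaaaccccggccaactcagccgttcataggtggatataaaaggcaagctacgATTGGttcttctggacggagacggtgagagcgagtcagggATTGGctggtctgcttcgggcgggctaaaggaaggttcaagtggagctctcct
MKI67: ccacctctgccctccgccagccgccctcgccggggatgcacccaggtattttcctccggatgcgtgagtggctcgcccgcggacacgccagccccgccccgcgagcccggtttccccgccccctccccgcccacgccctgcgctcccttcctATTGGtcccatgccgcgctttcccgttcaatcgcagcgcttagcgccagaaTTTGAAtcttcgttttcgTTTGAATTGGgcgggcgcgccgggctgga
PRR11: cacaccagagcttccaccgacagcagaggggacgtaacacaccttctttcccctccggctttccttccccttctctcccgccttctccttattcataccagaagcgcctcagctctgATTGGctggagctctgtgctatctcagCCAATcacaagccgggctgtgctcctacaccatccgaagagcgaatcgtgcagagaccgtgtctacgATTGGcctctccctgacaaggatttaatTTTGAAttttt
KIF20A: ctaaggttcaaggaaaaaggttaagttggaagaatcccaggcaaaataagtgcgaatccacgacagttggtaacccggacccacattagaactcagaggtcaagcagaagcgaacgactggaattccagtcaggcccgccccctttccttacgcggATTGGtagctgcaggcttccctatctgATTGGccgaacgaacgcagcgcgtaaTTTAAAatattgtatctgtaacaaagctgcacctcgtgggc
CDC25B: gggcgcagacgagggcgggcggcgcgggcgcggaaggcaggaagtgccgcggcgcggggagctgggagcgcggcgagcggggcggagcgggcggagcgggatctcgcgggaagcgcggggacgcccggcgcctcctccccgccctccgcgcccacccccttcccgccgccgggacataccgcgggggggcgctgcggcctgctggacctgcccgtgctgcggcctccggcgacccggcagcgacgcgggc

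The CCNB1 window is chr5:69166900-69167149 on the plus strand and holds 1 CHR match and 2 CCAAT matches. TOP2A, at chr17:40417897-40418146 on the minus strand, has 2 CHR and 4 CCAAT matches. MKI67, at chr10:128126424-128126673 on the minus strand, has 2 of each, with the last CHR and CCAAT matches sharing letters. PRR11, at chr17:59155496-59155745 on the plus strand, has 1 CHR match that starts 11 bases before the gene start, and 3 CCAAT matches. KIF20A, at chr5:138178862-138179111 on the plus strand, has 1 CHR match that starts 41 bases before the start, and 2 CCAAT matches. The CDC25B window, chr20:3786701-3786950 on the plus strand, holds 0 of either. Among the 31 genes with a promoter that fell in recovery, 23 (74.2%) held the CHR letters and 24 (77.4%) CCAAT. Of the 6 with a promoter that did not pass, 3 (50%), NCAPG among them, held the CHR letters and 2 (33.3%) CCAAT. Whether the letters go with the fall was not tested. PLK4, CDC25C and NDC80 fell and held neither in the window searched, while CKS2 and PTTG1 held both and did not pass the test. Only 1 start was searched per gene, so a gene without a match here may hold the letters before another start.

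Entry into mitosis is driven by CDK1 with cyclins A and B, and by the CDC25 phosphatases that remove its inhibitory phosphates. Of these 7 genes, 5 fell in recovery against control, with a median log2 difference of -0.54. CCNB2, cyclin B2, had the largest difference, with log2 levels of 10.72, 10.62 and 10.63 on recovery arrays, 11.38, 10.95 and 11.20 on doxycycline arrays and 11.46, 11.46 and 11.33 on control arrays. Recovery lay below all other arrays, doxycycline and control overlapped, and CCNB2 was 1.7-fold lower in recovery than in control (log2 difference -0.76 ± 0.13, limma adjusted p = 0.0016). CDC25C, which triggers CDK1 activation, fell by 0.55 and CCNA2, cyclin A2, by 0.54. CDK1 itself had log2 levels of 11.26, 11.02 and 11.20 on recovery arrays, 11.41, 11.10 and 11.26 on doxycycline arrays and 11.74, 11.44 and 11.67 on control arrays. Its recovery and doxycycline arrays overlapped each other and both lay below the control arrays. CDK1 fell by 0.46 in recovery (SE 0.13, limma adjusted p = 0.032), and its doxycycline difference of -0.36 ± 0.13 did not pass (limma adjusted p = 0.14). The dimmer second CDK1 probe gave -0.83 in recovery and -0.37 under doxycycline. The paralogue phosphatase CDC25B differed from its group: its log2 levels were 11.44, 11.57 and 11.52 on recovery arrays, 11.69, 11.39 and 11.54 on doxycycline arrays and 11.47, 11.37 and 11.47 on control arrays. The 3 groups overlapped, and the recovery difference was 0.07 with a 95% interval from -0.18 to 0.33, so that a drop as large as that of CDK1 lay outside it. CKS2, a small CDK-binding subunit, had a difference of -0.25 ± 0.18 that did not pass.

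Among the mitotic kinases and the chromosomal passenger complex, which times chromosome attachment and cytokinesis, 5 of 6 genes fell, with a median of -0.49. PLK1, the Polo-like kinase that acts from centrosome maturation to cytokinesis, had log2 levels of 8.41, 8.04 and 8.71 on recovery arrays, 9.17, 8.31 and 9.13 on doxycycline arrays and 9.03, 9.11 and 9.38 on control arrays. Recovery lay below control, and doxycycline replicate 2 lay within the recovery range while the other doxycycline arrays lay within the control range. PLK1 was 1.72-fold lower in recovery than in control (log2 difference -0.79 ± 0.23, limma adjusted p = 0.036), and it had the widest spread between replicates of the 44 genes in the recovery and doxycycline groups. AURKB, the passenger complex kinase, fell by 0.59 and its partner BIRC5, survivin, by 0.43. NEK2, a kinase of centrosome separation, fell by 0.51, and PLK4, which starts centriole duplication, by 0.47. AURKA, the kinase of spindle poles, had log2 levels of 11.44, 11.31 and 11.40 on recovery arrays, 11.77, 11.20 and 11.63 on doxycycline arrays and 11.49, 11.48 and 11.59 on control arrays. Recovery lay below control by a small margin, with a difference of -0.14 ± 0.15 that did not pass (95% interval -0.46 to 0.18), and the second AURKA probe gave -0.28.

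The spindle assembly checkpoint holds back anaphase until every kinetochore is attached. Of its 5 genes 3 fell, with a median of -0.38. BUB1B, the BubR1 component of the checkpoint complex, had log2 levels of 9.03, 8.77 and 8.98 on recovery arrays, 9.43, 9.36 and 9.78 on doxycycline arrays and 9.49, 9.50 and 9.59 on control arrays. Recovery lay below all other arrays, and the doxycycline arrays spanned the control range. BUB1B fell by 0.60 in recovery against control (SE 0.14, limma adjusted p = 0.0099). MAD2L1, the MAD2 protein that binds CDC20, fell by 0.51 and BUB1, a checkpoint kinase, by 0.38. TTK, the MPS1 kinase, had a difference of -0.31 ± 0.14 that did not pass. BUB3, the adaptor that brings BUB1 and BubR1 to kinetochores, had log2 levels of 12.75, 12.55 and 12.75 on recovery arrays, 12.69, 12.48 and 12.72 on doxycycline arrays and 12.46, 12.68 and 12.78 on control arrays. The groups overlapped, with a recovery difference of 0.04 (95% interval -0.24 to 0.33). The 2 dimmer BUB3 probes that passed the filter gave -0.31 and -0.24, and BUB3 was the only 1 of the 19 genes with 2 or more probes passing the filter whose probes differed in sign.

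Anaphase starts when the anaphase-promoting complex, a ubiquitin ligase, marks securin and cyclin B for destruction. Of 4 genes grouped as anaphase and ubiquitin ligase parts 3 fell, with a median of -0.47. UBE2C, the ubiquitin-conjugating enzyme of the complex, had log2 levels of 12.10, 11.99 and 11.86 on recovery arrays, 12.54, 11.87 and 12.47 on doxycycline arrays and 12.63, 12.57 and 12.46 on control arrays. Recovery lay below control, doxycycline replicate 2 at the low end of the recovery arrays, and the other doxycycline arrays within the control range. UBE2C fell by 0.57 (SE 0.17, limma adjusted p = 0.036), CDC20, the activator of the complex, by 0.49, and CCNF, cyclin F, by 0.44. PTTG1, securin, which holds separase inactive, had log2 levels of 12.19, 12.26 and 12.19 on recovery arrays, 12.41, 11.78 and 12.33 on doxycycline arrays and 12.56, 12.66 and 12.69 on control arrays. Both the recovery and the doxycycline arrays lay below every control array, yet neither difference passed the test, with -0.42 ± 0.16 for recovery (limma adjusted p = 0.084) and -0.46 ± 0.16 for doxycycline (limma adjusted p = 0.13). PTTG1 has near-identical gene copies, from which its probe was not told apart here.

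All 4 centromere and kinetochore genes fell, with a median of -0.67. CENPA, the histone H3 variant that marks centromeres, had log2 levels of 9.96, 9.80 and 9.99 on recovery arrays, 10.65, 9.95 and 10.47 on doxycycline arrays and 10.73, 10.71 and 10.63 on control arrays. The recovery arrays were all below control, and doxycycline replicate 2 fell among the recovery arrays. CENPA was 1.71-fold lower in recovery than in control (log2 difference -0.78 ± 0.16, limma adjusted p = 0.0067). NDC80, which couples kinetochores to microtubule ends, had log2 levels of 9.06, 8.99 and 8.88 on recovery arrays, 9.46, 8.90 and 9.48 on doxycycline arrays and 9.66, 9.57 and 9.47 on control arrays. NDC80 fell by 0.59 in recovery against control (SE 0.16, limma adjusted p = 0.022), the smallest of the 4. CENPF, a large kinetochore protein that accumulates in G2, fell by 0.74 and CENPE, a kinetochore motor, by 0.60. On doxycycline replicate 2 CENPE and CENPF were higher than on the other doxycycline arrays, at 10.92 for CENPE against 10.52 and 10.53, and at 12.46 for CENPF against 11.98 and 12.00; both genes were singled out after their values were seen.

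Of 6 genes for spindle motors and microtubule proteins, 3 fell, with a median of -0.39. HMMR, a spindle pole protein, had log2 levels of 10.30, 10.15 and 9.93 on recovery arrays, 10.87, 10.23 and 10.75 on doxycycline arrays and 10.99, 10.72 and 10.70 on control arrays. No recovery array reached the control range, and doxycycline replicate 2 fell within the recovery range. HMMR was 1.6-fold lower in recovery (log2 difference -0.68 ± 0.17, limma adjusted p = 0.018). KIF11, the motor that pushes spindle poles apart, fell by 0.59 and NUSAP1, a microtubule-bundling protein, by 0.39. KIF2C, a motor that shortens microtubules to correct attachments, had log2 levels of 10.15, 10.21 and 10.46 on recovery arrays, 10.48, 10.16 and 10.42 on doxycycline arrays and 10.44, 10.57 and 10.39 on control arrays. Its groups overlapped, and the recovery difference was -0.19 ± 0.13 (95% interval -0.48 to 0.10). CKAP2, a microtubule stabiliser, had -0.39 ± 0.18 and TPX2, the activator of Aurora A on the spindle, -0.25 ± 0.15, and neither passed.

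All 6 genes of the central spindle and cytokinesis fell, with a median of -0.55. KIF20A, a motor that brings passenger proteins to the central spindle, had log2 levels of 10.39, 10.11 and 10.38 on recovery arrays, 11.26, 10.83 and 11.09 on doxycycline arrays and 11.17, 11.25 and 11.04 on control arrays. Recovery lay below every other array. KIF20A was 1.82-fold lower in recovery than in control (log2 difference -0.86 ± 0.14, limma adjusted p = 0.0013) and also lower than in doxycycline, by -0.77 ± 0.14 (limma adjusted p = 0.0036). KIF4A, which sets central spindle length, had log2 levels of 9.22, 9.18 and 9.28 on recovery arrays, 9.93, 9.61 and 9.83 on doxycycline arrays and 9.67, 9.68 and 9.72 on control arrays. Its fall of 0.46 in recovery against control was the smallest of the 6 (SE 0.12, limma adjusted p = 0.017). KIF23 and PRC1, which build the central spindle, fell by 0.57 and 0.54, ANLN, the cleavage furrow scaffold anillin, by 0.55, and ECT2, the exchange factor that switches on RhoA at the furrow, by 0.47.

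Of 4 genes of chromosome structure and proliferation, TOP2A, MKI67 and SMC4 fell, with a group median of -0.65. SMC4, a core subunit of condensin, fell by 0.61 (SE 0.13, limma adjusted p = 0.0054). NCAPG, another condensin subunit, had log2 levels of 11.97, 11.86 and 11.99 on recovery arrays, 12.00, 11.93 and 11.99 on doxycycline arrays and 11.88, 11.93 and 12.04 on control arrays. All 3 groups of NCAPG overlapped, and the recovery difference was -0.01 with a 95% interval from -0.25 to 0.22, so that a drop as large as that of SMC4 lay outside it. NCAPG rested on 1 probe, as did 25 of the 44 genes.

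The remaining 2 genes, PRR11 and FOXM1, were grouped as regulators. PRR11, a proline-rich protein needed for cell cycle progression, had log2 levels of 7.51, 7.46 and 7.43 on recovery arrays, 9.14, 8.84 and 9.06 on doxycycline arrays and 9.08, 9.30 and 9.38 on control arrays. The recovery arrays lay far below the others, and the doxycycline arrays overlapped the control arrays. PRR11 was 3.46-fold lower in recovery than in control (log2 difference -1.79 ± 0.13, limma adjusted p = 1.7e-06), which ranked 8 among the falls of all genes tested, while the next of the 44, KIF20A, ranked 218. FOXM1, the transcription factor that activates late cell cycle genes, had log2 levels of 8.53, 8.55 and 8.25 on recovery arrays, 8.94, 8.79 and 8.95 on doxycycline arrays and 8.95, 8.87 and 8.60 on control arrays. Recovery lay below control by a narrow gap, and the difference of -0.36 ± 0.13 did not pass (limma adjusted p = 0.084). Without doxycycline replicate 2 the same difference of -0.37 was called.

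**Figure D2:**
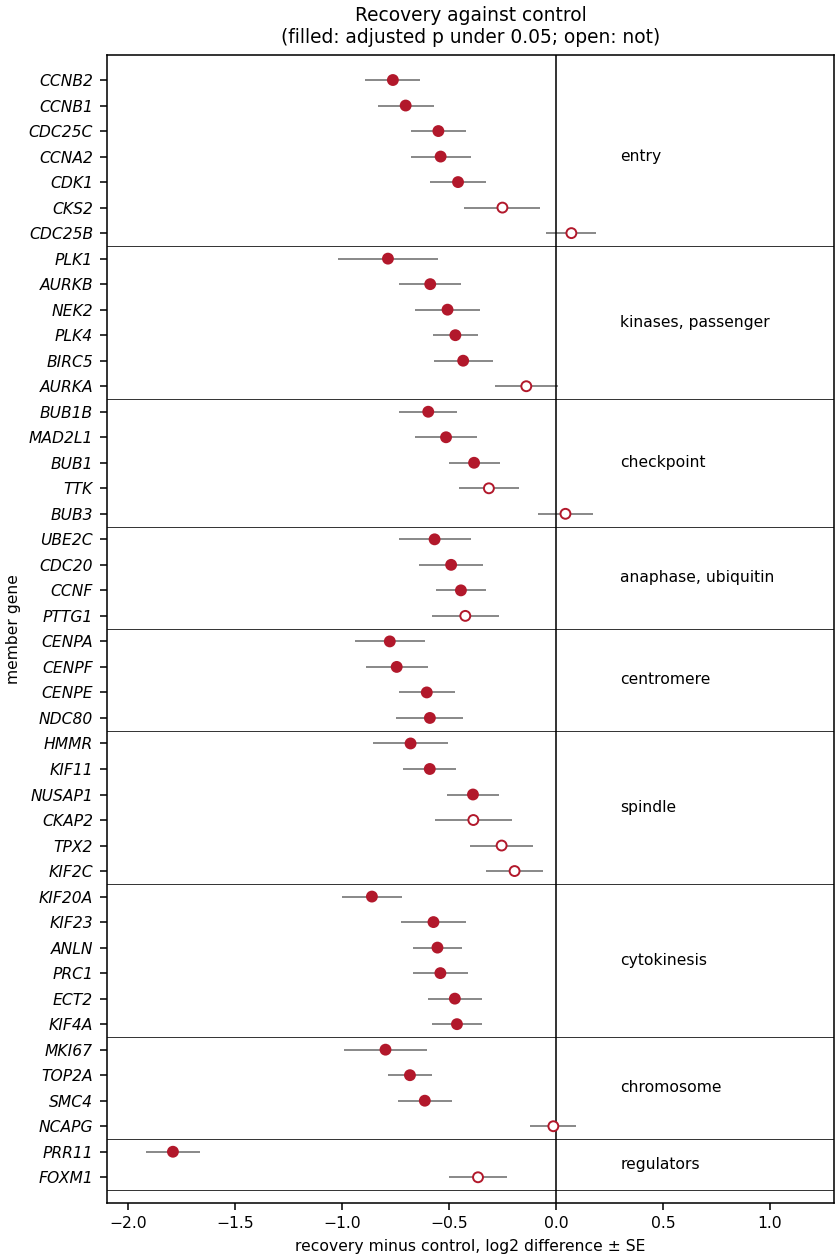
Log2 difference of recovery from control for each of the 44 genes, by mitotic function (points with SE whiskers, filled where the limma adjusted p is under 0.05). All centromere and cytokinesis genes are filled, PRR11 lies at -1.79, and CDC25B, BUB3 and NCAPG lie near 0.

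By median, and leaving aside the 2 regulators, the falls in recovery ranked from centromere and kinetochore (-0.67) and chromosome structure (-0.65) through cytokinesis (-0.55), mitotic entry (-0.54), kinases (-0.49) and anaphase (-0.47) to spindle proteins (-0.39) and the checkpoint (-0.38). The differences between functions were not tested. Members of some functions spread more widely than the medians did, such as entry genes, which ranged from -0.76 to 0.07. The centromere genes, from -0.78 to -0.59, and the anaphase genes, from -0.57 to -0.42, spread less widely than the medians. The count of 33 moved with the arrays used. It was 18, 15 and 19 without recovery replicates 1, 2 and 3, and 18, 17 and 19 without control replicates 1, 2 and 3. In these fits 6.14%, 4.89% and 5.75%, and 5.92%, 5.51% and 5.35%, of all genes fell, against 9.06% with all arrays. The count was 33, 36 and 29 without doxycycline replicates 1, 2 and 3, where 11.5%, 15.3% and 7.84% of all genes fell. With the recovery and control arrays alone it was 36, where 16.6% of all genes fell. The share over all genes thus moved with the arrays too. In every one of 21 alternative fits 12 genes kept the call: CCNB1, CCNB2, PLK4, CENPA, CENPE, CENPF, KIF11, KIF20A, ANLN, TOP2A, SMC4 and PRR11.

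Whether the fall starts under doxycycline was read from the doxycycline arrays against the control arrays. None of the 44 genes passed the test, the smallest adjusted p being 0.127 for PTTG1 (limma). At an unadjusted p under 0.05, 3 were lower and 1 higher, where 10% of all genes tested were lower. The median difference was -0.09, against 0.01 over all genes, with 29 genes below 0 and 15 above. The 4 genes whose doxycycline arrays all lay below the control arrays were CDK1, CCNA2, NEK2 and PTTG1, against 11.1% of all genes. By function, the medians were -0.26 for entry genes, -0.22 for anaphase, -0.14 for spindle proteins, -0.11 for kinases, -0.09 for centromere, -0.01 for the checkpoint, 0.01 for chromosome structure and 0.05 for cytokinesis. These values depend on the probe. A dimmer probe was lower for NUSAP1 (-0.48 against -0.16) and MAD2L1 (-0.53 against -0.25). It was higher for UBE2C (0.18 against -0.26) and CENPA (-0.19 against -0.33). These 4 genes were singled out after their values were seen.

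Array by array, the member median relative to the control mean was -0.48, -0.53 and -0.49 on the recovery arrays. On the doxycycline arrays it was 0.00, -0.32 and -0.01, so that doxycycline replicate 2 lay apart from the others. Genes that lay below every control array numbered 40 to 42 of 44 on the recovery arrays, 30 on doxycycline replicate 2 and 10 and 9 on the other doxycycline arrays. Over all genes these shares were 35.2% to 37.6% on the recovery arrays, 40.5% on doxycycline replicate 2 and 26.7% and 28.7% on the other doxycycline arrays. Relative to the mean of the other doxycycline arrays, replicate 2 was lower for 38 of the 44 genes, with a median of -0.28, while MKI67, CENPE and CENPF were among the 6 that were not lower. On that array 17 of 17 ribosomal protein genes, a check of RNA quality, were also lower, by a median of -0.44, and 32 of 37 S phase genes, by a median of -0.34, against -0.04 over all genes. Of the 8 osteoblast and osteosarcoma markers 1 was lower on it, and their median was 0.50. The part of these shifts in the mitotic result was not tested.

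Without doxycycline replicate 2 the doxycycline median was 0.00, with 22 genes below 0 and 22 above. Again 0 of the 44 were called, where 0.314% of all genes fell and 1.66% rose. At an unadjusted p under 0.05, 2 were lower, where 6.34% of all genes were. With 2 doxycycline arrays, 4 genes lay wholly below control and 6 wholly above it, against 14% and 20.1% of all genes. The entry genes kept the lowest median of any function, -0.13, followed by centromere at -0.08 and anaphase at -0.06. CDK1 was at -0.28 ± 0.13 (95% interval -0.56 to -0.01), PTTG1 at -0.27 ± 0.10 (95% interval -0.49 to -0.04) and CCNB1 at -0.22 ± 0.13 (95% interval -0.51 to 0.07), none of which passed across all genes. For PRR11 the difference was -0.15 with an interval from -0.40 to 0.10, which leaves out a drop of the size seen in recovery. Leaving out doxycycline replicate 1 in place of replicate 2 gave 5 calls, with CDK1, CCNA2, PTTG1 and CENPA lower and MKI67 higher, from the pair of arrays that holds replicate 2. In that fit 8.75% of all genes fell and 12.7% rose, so that 4 and 1 of 44 were near or below the shares over all genes.

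**Figure D3:**
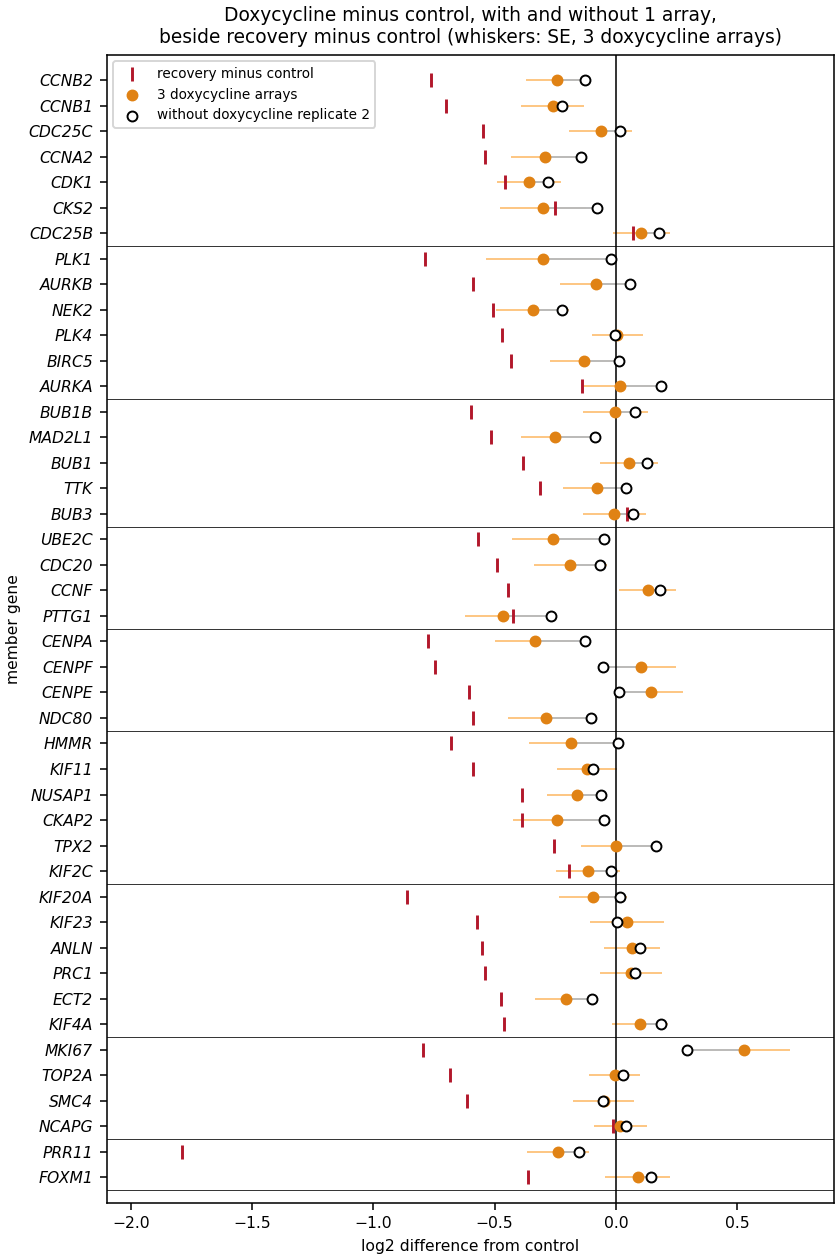
Log2 difference from control for each of the 44 genes under doxycycline with all 3 arrays (filled points, SE whiskers) and without doxycycline replicate 2 (open points), beside the difference of recovery (vertical marks). Open points lie on both sides of 0, and most recovery marks lie well to the left of them.

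**Figure D4:**
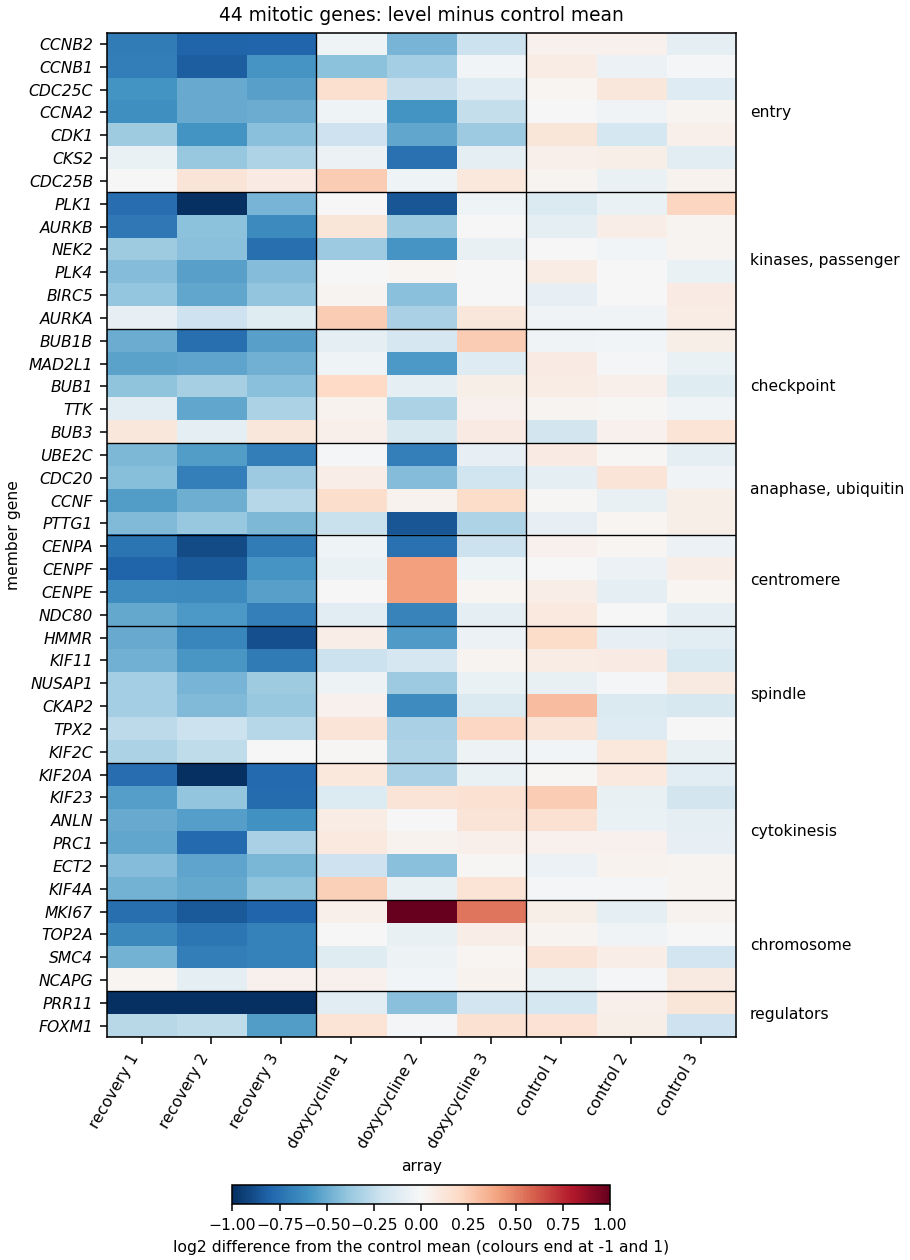
Log2 level of each of the 44 genes on each array minus the control mean, with recovery arrays at left, then doxycycline, then control, and genes grouped by function. Blue is lower and red higher than control, and colours end at a difference of 1, which PRR11 exceeds on all recovery arrays and PLK1 and KIF20A on recovery replicate 2. Doxycycline replicate 2 is bluer than its neighbours for most genes but not for MKI67, CENPE and CENPF.

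The recovery arrays set against the doxycycline arrays compare 3 days of drug followed by 3 drug-free days with the drug days alone. This difference holds both withdrawal and the added time, which cannot be told apart. Of the 44 genes 21 fell and 0 rose, where 9.69% of all genes fell and 8.71% rose, and the median difference was -0.44. Levels did not overlap for 22 genes, against 18.1% of all genes. By function, the calls covered both regulators, 5 of 6 cytokinesis genes, 3 of 4 of chromosome structure, 2 of 4 centromere genes, 3 of 7 entry genes, 2 of 5 checkpoint genes, 2 of 6 kinases, 1 of 4 anaphase genes and 1 of 6 spindle genes. The largest fall was that of PRR11, by 1.55 (SE 0.13, limma adjusted p = 1.3e-05), followed by MKI67, and CENPF fell by 0.85. FOXM1 fell by 0.45 (limma adjusted p = 0.038). CDK1 differed by -0.10 ± 0.13 and PTTG1 by 0.04 ± 0.16, and neither passed. The dimmer second probe of CDK1 gave -0.47 and that of PTTG1 -0.03, so that the small CDK1 difference depended on the probe.

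Without doxycycline replicate 2 all 44 genes lay below 0 in this comparison, and 34 were called, against 11.7% of all genes, with a median of -0.50. Recovery arrays then lay wholly below the doxycycline arrays for 37 of 44, against 26.3% of all genes. By function the calls then covered both regulators, 6 of 6 cytokinesis genes, 4 of 4 centromere genes, 5 of 6 kinases, 3 of 4 of chromosome structure and 3 of 4 anaphase genes, 4 of 6 spindle genes, 3 of 5 checkpoint genes and 4 of 7 entry genes, so that the order of functions differed from that with all arrays. In the same fit 36 genes were called in recovery against control, where 15.3% of all genes fell. Leaving out other arrays lowered the count of 21 to 12 without recovery replicate 2, 13 without recovery replicate 3 and 13 without doxycycline replicate 3. In these fits 4.5%, 6.36% and 6.08% of all genes fell, against 9.69% with all arrays. The comparisons of recovery with doxycycline and with control share the recovery arrays.

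Other mitotic genes, outside the 44, were read from a list of 77, of which 72 were tested. Against control, 34 fell and 2 rose in recovery, where 9.06% of all genes fell and 10.2% rose, and their median was -0.37. The smallest p-values among them were those of CDCA3, a mitotic entry factor at -1.13 ± 0.12, SPC24 of the NDC80 complex at -1.13 ± 0.13 and SMC2, the condensin partner of SMC4, at -0.84 ± 0.11. The 2 that rose were MAD1L1, which anchors MAD2 at kinetochores, by 1.04 ± 0.16, and MASTL, the Greatwall kinase, by 0.50 ± 0.11. Under doxycycline 0 of the 72 fell and 1, MAD1L1, rose by 0.78 ± 0.16 (limma adjusted p = 0.036), where 0.359% of all genes fell and 1.71% rose. Between recovery and doxycycline 28 fell and 0 rose, where 9.69% of all genes fell and 8.71% rose. Without doxycycline replicate 2, 39 fell in recovery against control and 35 against doxycycline, where 15.3% and 11.7% of all genes fell.

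Genes of S phase and DNA replication, which act just before the mitotic genes in the cycle, had smaller differences in recovery. Of 37 tested, 5 fell and 0 rose against control, where 9.06% of all genes fell and 10.2% rose, and their median was -0.20. DUT, POLE2 and TYMS, for nucleotide supply and DNA synthesis, had the smallest p-values. DUT had log2 levels of 9.07, 9.11 and 9.17 on recovery arrays, 9.58, 9.04 and 9.50 on doxycycline arrays and 9.75, 9.81 and 9.88 on control arrays. The median of the 37 under doxycycline was also -0.20, and it was -0.08 without doxycycline replicate 2. With all arrays 0 were called under doxycycline, and 12 were lower at an unadjusted p under 0.05, where 10% of all genes were. Between recovery and doxycycline 0 of 37 were called, with a median of 0.04, beside 21 of 44 mitotic genes and a median of -0.44. Over all genes 9.69% fell and 8.71% rose in that comparison. Without doxycycline replicate 2, 3 of the 37 were called lower in it, with a median of -0.06, beside 34 of 44 mitotic genes and a median of -0.50. Over all genes 11.7% were called lower there. In the same fit 8 of the 37 fell in recovery against control, where 15.3% of all genes fell. The difference between the lists was not tested.

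**Figure D5:**
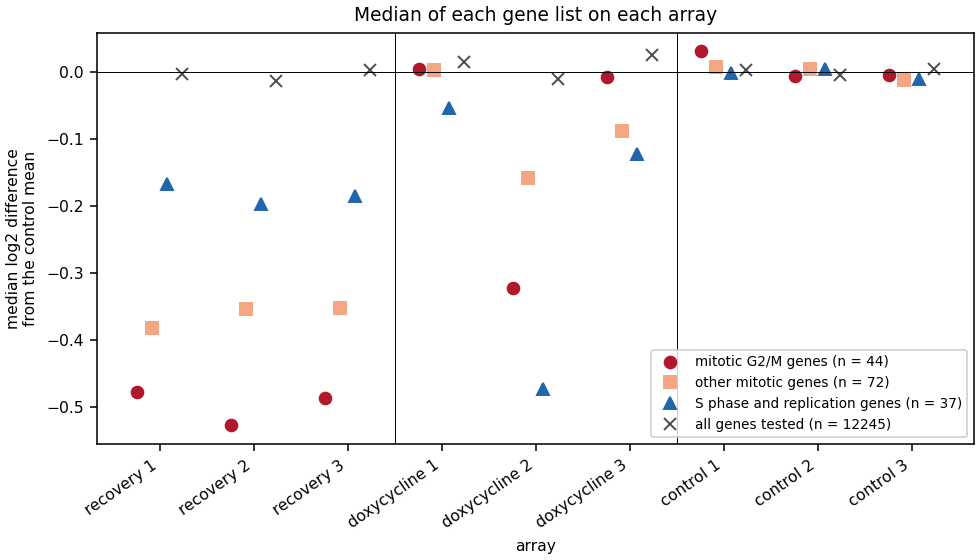
Median log2 difference from the control mean on each array for the 44 mitotic G2/M genes, 72 other mitotic genes, 37 S phase and replication genes and all 12245 genes tested. Mitotic genes lie lowest on the 3 recovery arrays, and among doxycycline arrays both mitotic and S phase medians are lowest on replicate 2.

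Regulators of these genes were read beside them. CDKN1A, the p21 inhibitor of cyclin-dependent kinases, had log2 levels of 11.65, 11.76 and 11.89 on recovery arrays, 10.91, 10.33 and 10.67 on doxycycline arrays and 10.42, 10.70 and 10.56 on control arrays. The recovery arrays lay above all others, and the doxycycline and control arrays overlapped. CDKN1A rose by 1.21 ± 0.15 in recovery against control (limma adjusted p = 0.000235), with a doxycycline difference of 0.08 ± 0.15. CDKN2B, the p15 inhibitor of CDK4 and CDK6, rose by 0.99 ± 0.13 in recovery, and the other 3 of 5 inhibitors tested did not pass. Of 20 DREAM, MuvB, E2F and NF-Y genes tested, RBBP4, a MuvB subunit, fell by 0.53 and NFYB, a subunit of NF-Y, by 0.43. LIN37, another MuvB subunit, rose by 0.55 ± 0.13. These 2 falls and 1 rise among 20 lie near or below the shares over all genes, of which 9.06% fell and 10.2% rose. Without doxycycline replicate 2, 4 of the 20 fell and 1 rose, where 15.3% of all genes fell and 16.2% rose. The 18 interferon response genes tested rose both in recovery and under doxycycline, where 10.2% and 1.71% of all genes rose. Their medians were 3.45 and 1.51. Of 17 ribosomal protein genes 3 fell in recovery and 5 under doxycycline, where 9.06% and 0.359% of all genes fell. Their medians were -0.39 and -0.51. The summed normalized intensity of the 17 ranged from 94622 to 99836 on recovery arrays, 80160 to 107906 on doxycycline arrays and 110794 to 122061 on control arrays. Without doxycycline replicate 2, 10 of the 17 fell in recovery and 3 under doxycycline, where 15.3% and 0.314% of all genes fell. The medians were then -0.39 and -0.37. The part of these lists in the mitotic result was not tested.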

How the data were processed

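Gene expression was measured on 9 single-colour Illumina bead arrays, 3 for each of 3 groups. The deposited table, per the file headers not normalized, holds an intensity for each of 47322 probes, with 29.2% to 32.5% of values below 0, so that a background had been subtracted. The authors deposited with it each probe's detection p-value, in steps of 1 in 770. A further table deposited by the authors holds their processed intensity values and served as an alternative. Which software produced them is not stated in the labels or headers. Columns of the first table carry codes (C, T and X) that were read as control, doxycycline and recovery, and checked by their ranks against the sample-named table: matching columns had a rank correlation of 1, and no other pair exceeded 0.962.

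Of the probes, 30112 had 1 gene symbol in the platform annotation, 8 several and 17202 none. Intensities were background corrected with normexp in limma 3.58.1 (R 4.3.3), from the detection p-values adding an offset of 16, and were quantile normalized on the log2 scale. A probe was kept if 3 or more arrays detected it at p under 0.05, and the brightest kept probe stood for each of 12245 genes. The offset compresses differences of dim probes. Groups were compared with lmFit and eBayes on all 9 arrays (6 residual degrees of freedom, prior 5.51), with p-values adjusted by Benjamini-Hochberg over all genes and a call at adjusted p under 0.05. The ± values are standard errors unless stated, intervals cover 95%, and the number of arrays limits the precision. The fits were tested on simulated data, with independent noise of 1 spread per gene in all groups. The doxycycline arrays differed from that setting, with a median SD over all genes of 0.217, against 0.119 in recovery and 0.117 in control.

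The 44 genes and the lists were chosen with earlier results of these data known. Array values are given for the 3 markers, for the genes with the largest and smallest absolute difference of recovery from control in each function group of 3 or more, for both regulators and for the 3 largest doxycycline differences. From other lists at most 3 genes with the smallest p are named, plus CDKN1A, and further names stand where a count of 5 or fewer needed them. Deviations of same-numbered arrays from their group means correlated between -0.107 and 0.101, with 1 of 9 pairs over 0.1. Between recovery and control, same-numbered arrays correlated at 0.101, 0.050 and 0.051, and other pairs from -0.075 to 0.022. Same-numbered pairs that include a doxycycline array all correlated below 0. The numbers were not used as pairs in the main fit, though the labels do not say whether a number marks a shared culture or day. Alternatives were other scalings, filters, probe rules, priors and array weights, a replicate block, the compared groups alone, the authors' processed values and leaving out each array. Promoters came from a RefSeq table of GRCh38.p14, read with Python 3.11.15.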

Additional observations from a re-analysis of the deposited data

How the results depend on the processing

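The 33, 0 and 21 calls (recovery against control, doxycycline against control, recovery against doxycycline) were recomputed under 21 alternatives. Leaving out 1 array moved them to between 15 and 36, 0 and 5, and 12 and 34 calls. Over all genes, the share that fell then lay between 4.89% and 15.3%, 0.00824% and 8.75%, and 4.5% and 14.2%. The 5 calls under doxycycline came without doxycycline replicate 1, where 8.75% of all genes tested fell and 12.7% rose. Array weights gave 11 doxycycline calls (7 lower and 4 higher) and 37 calls for recovery against doxycycline, where 20.7% of all genes fell and 27.3% rose under doxycycline and 30.1% fell in recovery against doxycycline, with a weight of 157.76 on doxycycline replicate 3 and at most 1.08 on every other array. The median difference of recovery from control was -0.64 under median scaling, which moved the median of all genes by -0.07. The authors' processed values gave 26, 0 and 19 calls, where 7.91%, 0.0817% and 8.04% of all genes fell. A replicate block gave 28, 0 and 20 calls, where 7.76%, 0.163% and 7.86% of all genes fell. Differences near 0 changed sign. CDC25B in recovery against control was -0.059 under median scaling. BUB3 was -0.14 under median scaling, -0.17 as a mean over probes and from -0.047 (without control replicate 1) to 0.114 (without recovery replicate 2) with 1 array left out. NCAPG was 0.047 with cyclic loess, and with 1 array left out ranged from -0.048 (without control replicate 1) to 0.033 (without control replicate 3). TOP2A under doxycycline was 0.053 with cyclic loess and 0.068 with array weights, and from -0.040 (without doxycycline replicate 3) to 0.029 (without doxycycline replicate 2) with 1 array left out. The cause of these changes was not tested. No Dixon outlier test was run, since every group has 3 arrays.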
